A study of Homo sapiens with 9 samples.

Results

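The genes described here are kinesins and genes of the centromere, the kinetochore, the spindle and the exit from mitosis, measured in HCT116 cells whose histone variant H2A.X was targeted by shRNA and in control cells. Members were picked by symbol: KIF and a number, CENP and a letter, AURK, BUB, PLK, ANAPC, NCAP, SPC or SKA and their letter or number, and 11 single genes from NDC80 to TOP2A. This rule was set with earlier results of these data known. The RefSeq gene table holds 102 such genes, and 87 of them had a probe set with a gene name, among 14884 genes so named. For 15 members (CENPB, CENPE, CENPF, CENPS, 6 condensin subunits of the NCAP family, NUF2, SPC24, SPC25, DLGAP5 and TPX2) no probe set is named here, and they were not analysed here. Of the 87, 25 are kinesins of cargo transport, cilia and other roles, called transport kinesins below, and the other 62 are called mitotic genes.

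HCT116 is a human colorectal carcinoma line of epithelial origin. Its cells were infected with lentivirus carrying a pLKO.1-puro hairpin, either scrambled (shCTRL, 4 arrays) or directed against H2A.X (shH2A.X, 5 arrays), so both groups carry the vector and its puromycin resistance gene. The methods describe cells taken soon after infection as well as lines selected with puromycin, and do not say which of them the arrays hold. Before RNA was isolated, cells of both groups grew for 72 h with 10% FBS, and each RNA sample was hybridized to an Affymetrix whole-transcript array of the type Human Gene 2.0 ST. A single hairpin sequence is named for the knockdown, and separate infections are not named, so the spread between replicates may be partly technical. No probe set is named here for the H2A.X transcript, so these arrays do not check the knockdown.

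A dividing cell builds a bipolar spindle of microtubules, and kinesin motors push, slide and shorten those microtubules. Each chromosome is attached to the spindle through the kinetochore, a protein layer assembled on the CENP-A chromatin of the centromere, while the spindle checkpoint holds back the anaphase-promoting complex until attachments are made. Aurora and polo-like kinases time these steps. Transcripts of many mitotic genes are made in G2 and M phase, when the MuvB complex with B-MYB and FOXM1 replaces the repressive DREAM complex at their promoters as cells approach division.

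All 9 arrays were on a common scale, with array medians between 4.54 and 4.577 on the log2 scale. Pearson's r across genes, which are not independent replicates, was 0.9938 to 0.9953 within groups and 0.9851 to 0.986 between them. The spread within groups was small for these genes, with a median SD of 0.089 over the 87 members and 0.127 over all genes. Of 10 measured colon epithelium markers (12 listed), 7 lay above the array median on every array and 1 below, and the mean of the list ran from 6.85 to 6.98 in shCTRL and from 6.99 to 7.06 in shH2A.X. Of all 14884 named genes, 10575 had a mean above the median of all probe sets, so lying above it is common. EPCAM, the epithelial adhesion molecule, fell by 0.67 on the log2 scale, while KRT19 and KRT20, keratins of simple epithelium, rose by 0.64 and 1.00. Fibroblast markers had 3 of 10 genes measured, and 2 of them were below the median on every array (list mean 3.78 to 3.94 in shCTRL and 3.58 to 3.80 in shH2A.X). Leukocyte and endothelial markers had 5 of 10 measured, 3 of them below the median, and the mean of the list ran from 4.25 to 4.36 in shCTRL and from 4.62 to 4.68 in shH2A.X. CD68, a lysosomal protein of macrophages, rose by 0.90 within it. The part of these shifts in the results on mitotic genes was not tested.

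More of the mitotic genes were higher in shH2A.X cells than lower, and most of the rises were small. Of 87 members, 35 rose and 5 fell at a limma adjusted p under 0.05 over all genes, and 47 were not called. A rise was called for 12.2% of all 14884 genes and a fall for 10.7%, against 40.2% and 5.75% of the members. The median log2 fold change was 0.13 over the members and 0.00 over all genes, and 66 of 87 members lay above 0. Among the 62 mitotic genes, 30 rose and 3 fell, with a median of 0.20 and a median fold of 1.31 among those that rose. Mitotic genes gave brighter signals than most genes, and bright genes were called more often. The interquartile range of their mean log2 levels was 7.49 to 9.44, and of the 2861 genes with a mean level in that range 23.8% rose and 18.9% fell, with a median of 0.03. A rise of at least 1.5-fold was seen for 3 members, PLK2, CENPI and KIF24, against 2.36% of all genes, and the largest fall among the members was 1.26-fold. The groups did not overlap for 34 members that were higher and 7 that were lower, where all genes gave 12.1% and 10.7%. Of 21 DNA replication genes measured, 12 rose as well, with a median of 0.23. In a culture of many cells, a larger share of cells in mitosis or in other cycle phases and more transcript in each cell cannot be told apart.

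**Figure D1:**
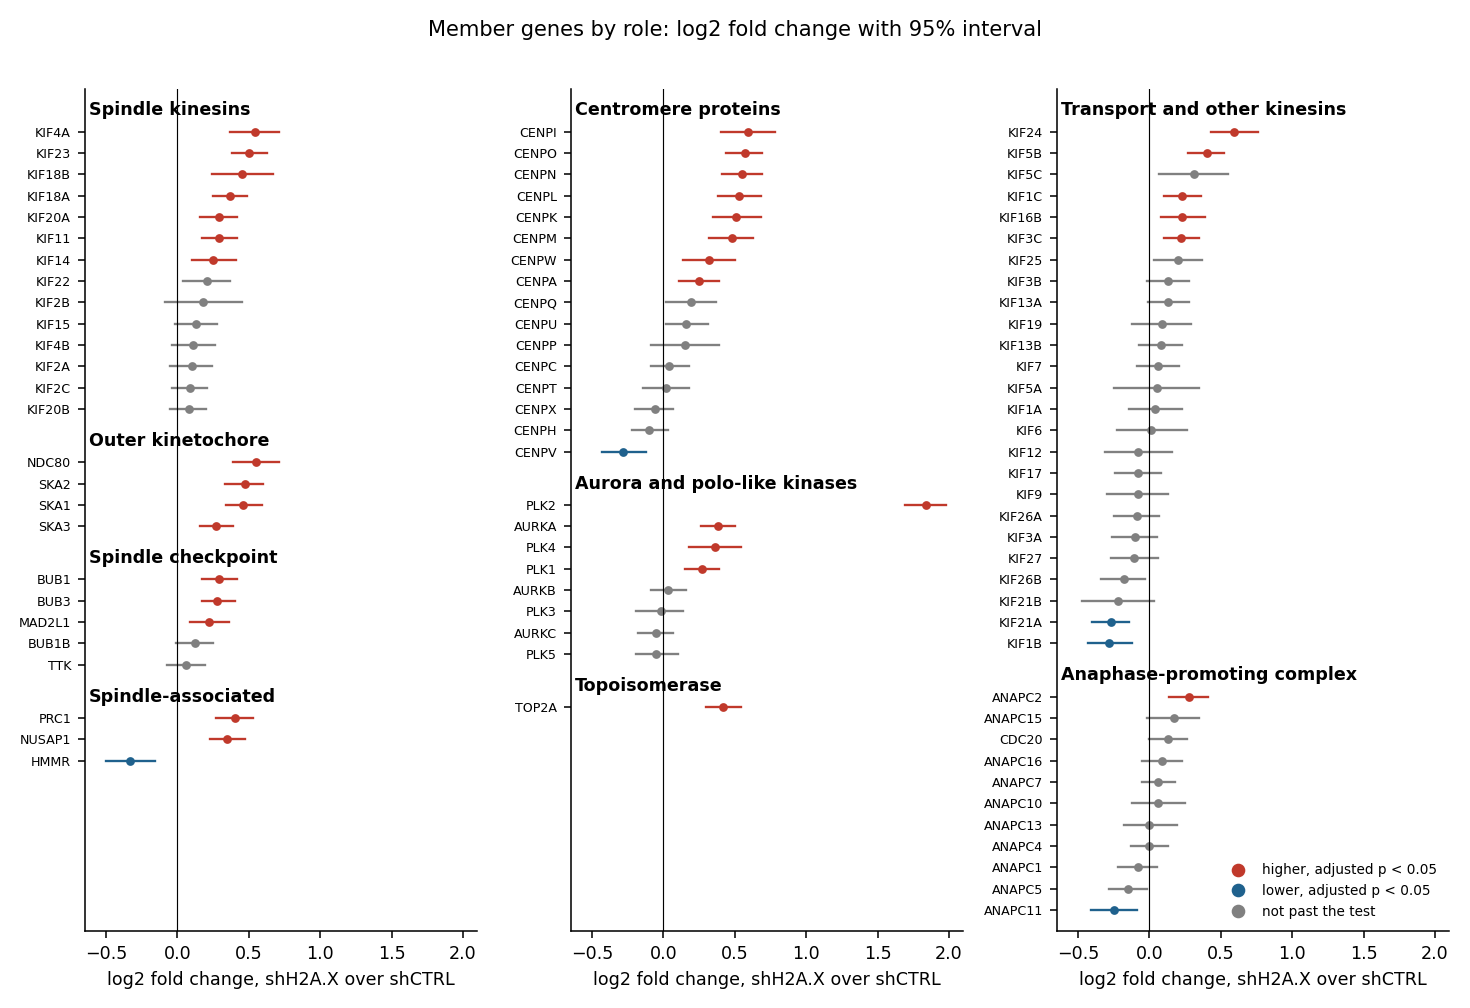
Log2 fold change of shH2A.X (5 arrays) over shCTRL (4 arrays) for each of the 87 members, grouped by role, with 95% intervals from limma; red and blue points passed an adjusted p of 0.05. PLK2 stands far to the right at 1.84, and all 4 outer kinetochore genes are red.

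The shift was seen on each array. Set against the midpoint of the group means for each gene, the median of the 62 mitotic genes was −0.10, −0.11, −0.13 and −0.09 on shCTRL replicates 1 to 4 and 0.11, 0.14, 0.12, 0.09 and 0.14 on shH2A.X replicates 1 to 5. The groups did not overlap in this median, and no array stood apart. For the 25 transport kinesins the same median ran from −0.05 to 0.03 in shCTRL and from −0.04 to 0.06 in shH2A.X, and here the groups overlapped. Over all genes it stayed between −0.02 and 0.01.

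**Figure D2:**
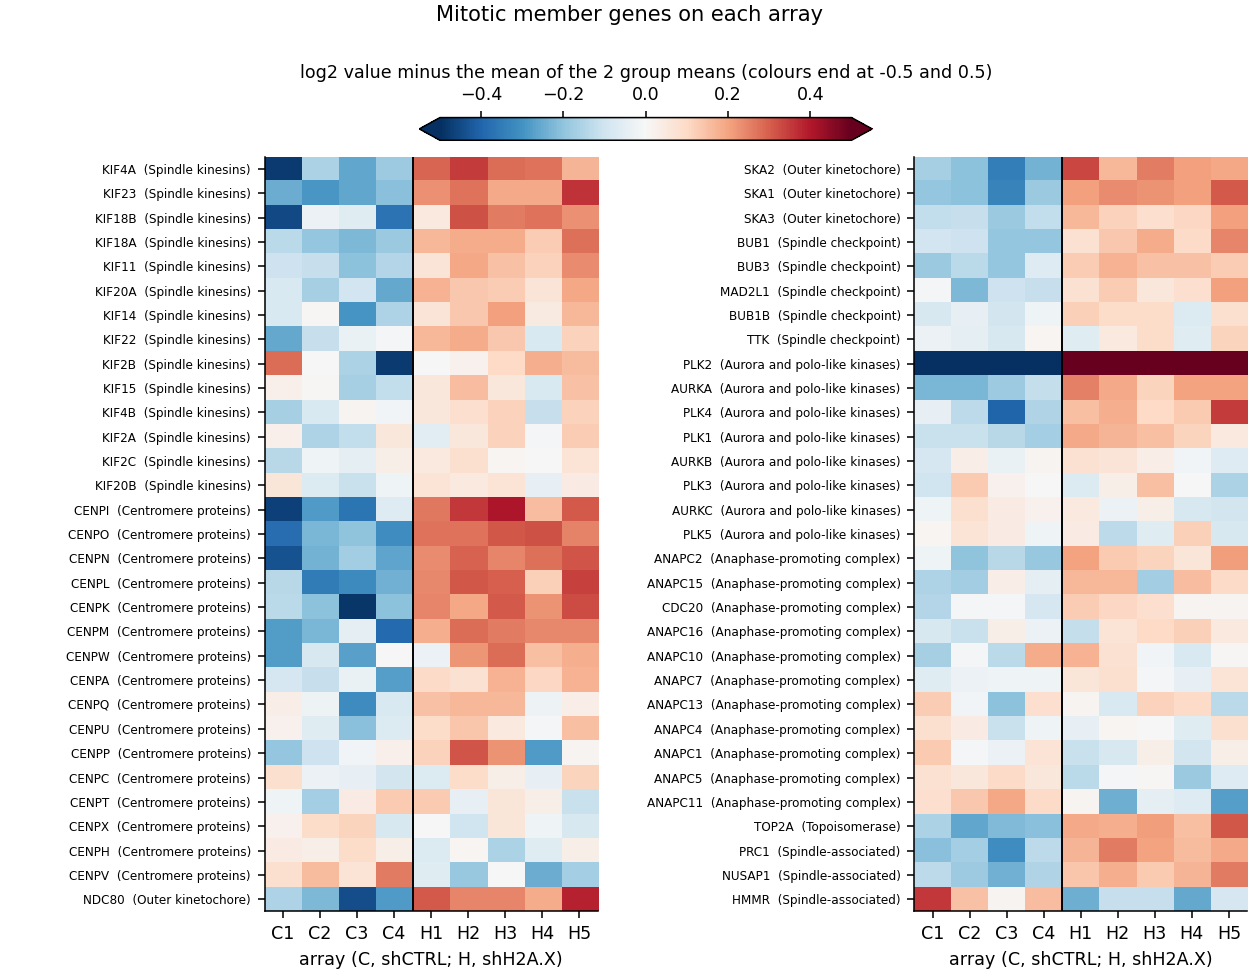
Each of the 62 mitotic genes on each array, as its log2 value minus the midpoint of its 2 group means; C1 to C4 are the shCTRL arrays and H1 to H5 the shH2A.X arrays. The 8 centromere genes that rose and the outer kinetochore genes turn from blue to red across the line between the groups, whereas most subunits of the anaphase-promoting complex stay pale.

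Promoter sequences of 5 members are shown with the motifs that are known from G2/M genes, which some members that rose carry and others, such as CENPI, PLK2 and ANAPC2, do not. Genes of G2 and M phase often carry a CHR element, whose core TTTGAA is read by LIN54 of the MuvB complex, downstream of CCAAT boxes bound by NF-Y. RefSeq promoters (GRCh38.p14, 250 bases before to 50 after the annotated start) were at hand for 74 of the 87 members and for 10749 of all genes tested, and were searched on both strands for the CHR core, for the NF-Y box, which reads ATTGG on the other strand, and for an E2F site, spelled TTTCCCGC or else TTTGGCGC. A box on each strand can overlap, as in CCAATTGG of HMMR. Stretches from 110 bases before to 20 bases after the start are given for a motor and its midzone partner that rose, a second motor that rose, a gene that fell and the member with the largest rise. Capitals mark matches to these motifs.
KIF4A, chrX:70289994-70290123, plus strand: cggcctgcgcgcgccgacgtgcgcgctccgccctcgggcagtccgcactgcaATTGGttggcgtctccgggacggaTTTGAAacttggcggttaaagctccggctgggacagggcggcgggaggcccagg
PRC1, chr15:90994516-90994645, minus strand: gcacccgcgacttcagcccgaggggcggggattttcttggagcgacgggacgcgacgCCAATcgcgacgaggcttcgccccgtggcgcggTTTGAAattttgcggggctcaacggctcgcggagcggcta
KIF23, chr15:69414239-69414368, plus strand: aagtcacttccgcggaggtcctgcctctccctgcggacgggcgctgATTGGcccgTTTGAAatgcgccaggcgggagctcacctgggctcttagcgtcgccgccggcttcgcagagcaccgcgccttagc
HMMR, chr5:163460522-163460651, plus strand: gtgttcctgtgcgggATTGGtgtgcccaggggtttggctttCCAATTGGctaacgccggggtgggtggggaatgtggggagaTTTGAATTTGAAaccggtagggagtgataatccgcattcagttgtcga
PLK2, chr5:58460067-58460196, minus strand: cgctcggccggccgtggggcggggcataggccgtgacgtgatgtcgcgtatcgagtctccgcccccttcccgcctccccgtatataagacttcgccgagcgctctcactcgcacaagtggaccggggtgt
In KIF4A, PRC1 and KIF23 a single TTTGAA began 34, 20 and 55 bases before the start, and the NF-Y box began 58, 53 and 64 bases before it. HMMR, which fell, held 2 copies of TTTGAA in a row and 3 matches of the NF-Y box that overlap in part. Of the 27 mitotic genes with a CHR core, 18 rose, 1 fell and 8 were not called. The PLK2 stretch held none of the motifs.

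Promoters were at hand for 26 of the 30 mitotic genes that rose and for 26 of the 29 not called. A CHR core was found in 18 of the 26 that rose (69.2%), in 8 of the 26 not called (30.8%) and in 1 of 19 promoters of transport kinesins (5.26%). The share among all genes was 11.8%. NF-Y boxes were found in 69.2%, 42.3% and 31.6% of the same groups and in 36.0% of all promoters. Both motifs together were found in 13 of the 26 promoters of mitotic genes that rose, in 4 of the 26 not called and in 4.86% of all. E2F sites were rare, with 2 of 26 promoters of mitotic genes that rose and 3.07% of all. Read the other way, 18 of 27 mitotic genes with a CHR core rose (median log2 fold change 0.27), and 8 of 28 without one did (median 0.12). Outside the members a CHR core went with no such difference, since 13.4% of 1244 genes with it and 13.4% of 9431 without it rose. So short a core can also occur by chance, and these counts cannot separate such matches from working elements. With both motifs, 16.1% of 503 other genes rose. Genes that rose and genes not called also differ in role. Of the 11 genes of the anaphase-promoting complex 9 were not called, while all 4 outer kinetochore genes rose. The motif counts were not split by role, and the part of role in them was not tested. These are counts of letters in a fixed window, given with no test.

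**Figure D3:**
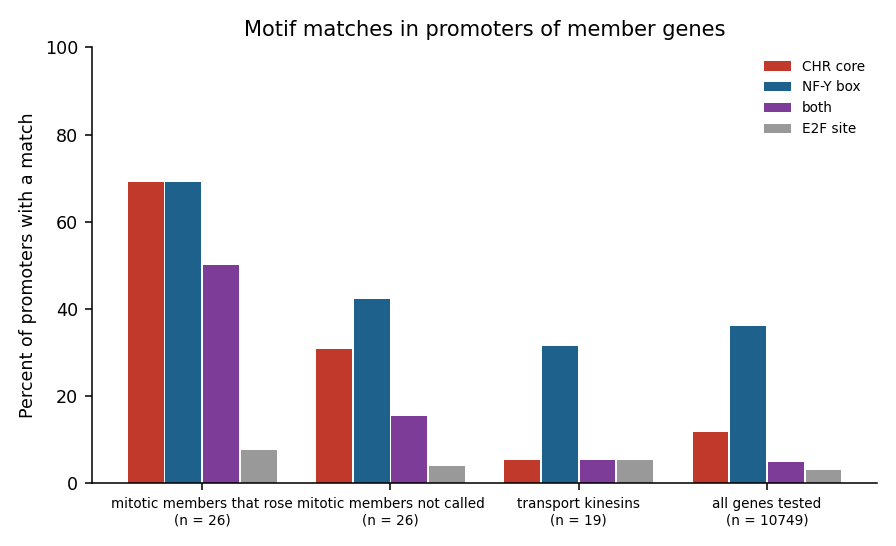
Percent of RefSeq promoters (300 bases) with a CHR core, an NF-Y box, both, or an E2F site, for mitotic genes that rose (n = 26), mitotic genes not called (n = 26), transport kinesins (n = 19) and all genes tested (n = 10749). The red bar for the CHR core falls from 69.2% to 30.8% and 5.26%, beside 11.8% of all genes.

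Of the 14 kinesins of the spindle, 7 rose (KIF4A, KIF23, KIF18B, KIF18A, KIF11, KIF20A and KIF14) and 7 did not pass the test, with all 14 fold changes above 0 and a median of 0.23. Over all genes 12.2% rose and 10.7% fell, and among genes in the level range of the mitotic genes 23.8% and 18.9%. KIF4A, a motor on chromosome arms that also sets the length of the midzone, had log2 values of 8.30, 8.62, 8.52 and 8.60 in shCTRL and 9.07, 9.13, 9.06, 9.05 and 8.95 in shH2A.X. The groups did not overlap, and the difference was 0.54 ± 0.08 (SE, limma adjusted p = 3.31e-04). KIF23, the motor of the centralspindlin complex that prepares cytokinesis, was at 10.43, 10.39, 10.42 and 10.47 in shCTRL and at 10.91, 10.95, 10.87, 10.87 and 11.04 in shH2A.X. The groups lay 0.50 ± 0.06 apart, many times the SD of 0.03 and 0.07 within them (limma adjusted p = 7.90e-05). KIF18B, which shortens astral microtubules at their plus ends, varied most among the 3, from 7.57 to 7.99 in shCTRL and from 8.07 to 8.34 in shH2A.X, and rose by 0.45 ± 0.10 (limma adjusted p = 0.00544). The other 4 that rose, picked for mention after their values were seen, did so by 0.37 for KIF18A, 0.29 for KIF11 (Eg5, which pushes the spindle poles apart), 0.29 for KIF20A and 0.25 for KIF14. The KIF14 call was lost without shCTRL replicate 3 or 4 or shH2A.X replicate 3 or 5 (limma adjusted p = 0.0683, 0.0567, 0.0556 and 0.0527). The 7 kinesins not called ranged from 0.08 (KIF20B) to 0.21 (KIF22) and included the kinesin-13 microtubule depolymerases KIF2A, KIF2B and KIF2C. KIF4B, an intronless copy of KIF4A, had 0.11, and because the copies are nearly identical in sequence its probes may read KIF4A as well, so the values of the pair are uncertain.

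Of the 25 transport kinesins, 5 rose and 2 fell (limma), beside 12.2% and 10.7% of all genes, and the median was 0.05. Their difference from the mitotic genes was not tested. KIF24, a kinesin of the mother centriole that holds back cilia, stood out with 6.21, 6.26, 6.14 and 6.28 in shCTRL and 6.69, 6.79, 7.05, 6.74 and 6.83 in shH2A.X, a rise of 0.59 ± 0.08 or 1.51-fold (limma adjusted p = 1.89e-04). All shH2A.X arrays lay above the shCTRL arrays, with replicate 3 on top. KIF5B, the widely expressed heavy chain of conventional kinesin, was at 11.21, 11.19, 11.16 and 11.16 in shCTRL and at 11.53, 11.56, 11.58, 11.53 and 11.69 in shH2A.X. It rose by 0.40 ± 0.06 without overlap (limma adjusted p = 3.34e-04), and it was the transport kinesin whose promoter held a CHR core. KIF16B, a motor of early endosomes, was less firm, with 6.13 to 6.43 in shCTRL and 6.37 to 6.56 in shH2A.X. Its groups overlapped, and its rise of 0.23 ± 0.07 (limma adjusted p = 0.0349) lost the call without any of shCTRL replicates 1 to 3 or shH2A.X replicates 2 to 5 (adjusted p between 0.0633 and 0.0996). The other 2 that rose were KIF1C and KIF3C, by 0.23 and 0.22, both named after their values were seen. KIF1B, which carries mitochondria and synaptic vesicle precursors, was at 8.23, 8.46, 8.30 and 8.12 in shCTRL and at 7.99, 7.97, 8.09, 8.00 and 7.97 in shH2A.X, and fell by 0.28 ± 0.07 (limma adjusted p = 0.0161). A second, dimmer probe set of KIF1B gave 0.04 ± 0.08, and the mean of both gave −0.12 (adjusted p = 0.177). KIF21A, which slows microtubule growth at the cell cortex, fell by 0.27 ± 0.06, from between 7.69 and 7.87 to between 7.43 and 7.56 (limma adjusted p = 0.00628). The 18 transport kinesins not called ranged from −0.22 (KIF21B) to 0.31 (KIF5C). KIF25 and KIF6 lay below the array median in both groups, and for such dim probe sets the table gives no detection call.

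Of 16 centromere proteins measured, 8 rose, 1 fell and 7 did not pass, with a median of 0.22. Over all genes 12.2% rose and 10.7% fell. CENPI, a member of the CENP-H/I/K group that holds the inner kinetochore on CENP-A chromatin, was at 7.96, 8.14, 8.06 and 8.36 in shCTRL and at 8.69, 8.78, 8.83, 8.58 and 8.73 in shH2A.X. The rise was 0.59 ± 0.09 or 1.51-fold without overlap (limma adjusted p = 4.40e-04). CENPO, of the CENP-O/P/Q/U group, was at 7.40, 7.55, 7.58 and 7.47 in shCTRL and at 8.05, 8.05, 8.09, 8.10 and 8.03 in shH2A.X. Its shH2A.X values had an SD of 0.03, and the difference of 0.57 ± 0.06 had a limma adjusted p of 3.09e-05. CENPN, which with CENPL binds CENP-A nucleosomes, was at 9.02, 9.22, 9.28 and 9.19 in shCTRL and at 9.69, 9.75, 9.70, 9.73 and 9.77 in shH2A.X, a rise of 0.55 ± 0.06 (limma adjusted p = 7.33e-05). The further 5 that rose, picked for mention after their values were seen, were CENPL (0.53), CENPK (0.51), CENPM (0.48), CENPW (0.32) and CENPA (0.25), the centromeric histone H3 itself. In CENPW the groups overlapped. Some partners rose together, as CENPK with CENPI and CENPL with CENPN. Others were not called, with −0.10 for CENPH beside CENPI and CENPK. The same held for CENPP, CENPQ and CENPU beside CENPO, with 0.15, 0.19 and 0.16. The 95% intervals of CENPQ (0.02 to 0.37) and CENPU (0.02 to 0.31) lay above 0, although neither passed after adjustment. The differences between partners were not tested. CENPV, a protein of centromeric chromatin and of the spindle midzone, went the other way, from 8.75, 8.83, 8.74 and 8.93 in shCTRL to 8.61, 8.48, 8.67, 8.42 and 8.50 in shH2A.X. It fell by 0.28 ± 0.07 without overlap (limma adjusted p = 0.0141).

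All 4 outer kinetochore genes measured rose, which form the microtubule grip of the kinetochore. Over all genes the share that rose was 12.2%. NDC80, whose product binds the microtubule lattice, was at 8.48, 8.41, 8.19 and 8.35 in shCTRL and at 8.94, 8.88, 8.88, 8.82 and 9.02 in shH2A.X. The rise was 0.55 ± 0.07 without overlap (limma adjusted p = 1.94e-04). SKA2, of the SKA complex that keeps hold of shrinking microtubule ends, was at 8.56, 8.52, 8.38 and 8.49 in shCTRL and at 9.06, 8.89, 8.98, 8.93 and 8.92 in shH2A.X, a rise of 0.47 ± 0.06 (limma adjusted p = 2.11e-04). SKA1, of the same complex, was at 8.33, 8.32, 8.19 and 8.34 in shCTRL and at 8.73, 8.76, 8.75, 8.73 and 8.83 in shH2A.X. It rose by 0.46 ± 0.06 (limma adjusted p = 1.26e-04), and SKA3, the remaining subunit, by 0.27 ± 0.05. No gene of the group overlapped between the groups. The other subunits of the NDC80 complex were not analysed here.

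**Figure D4:**
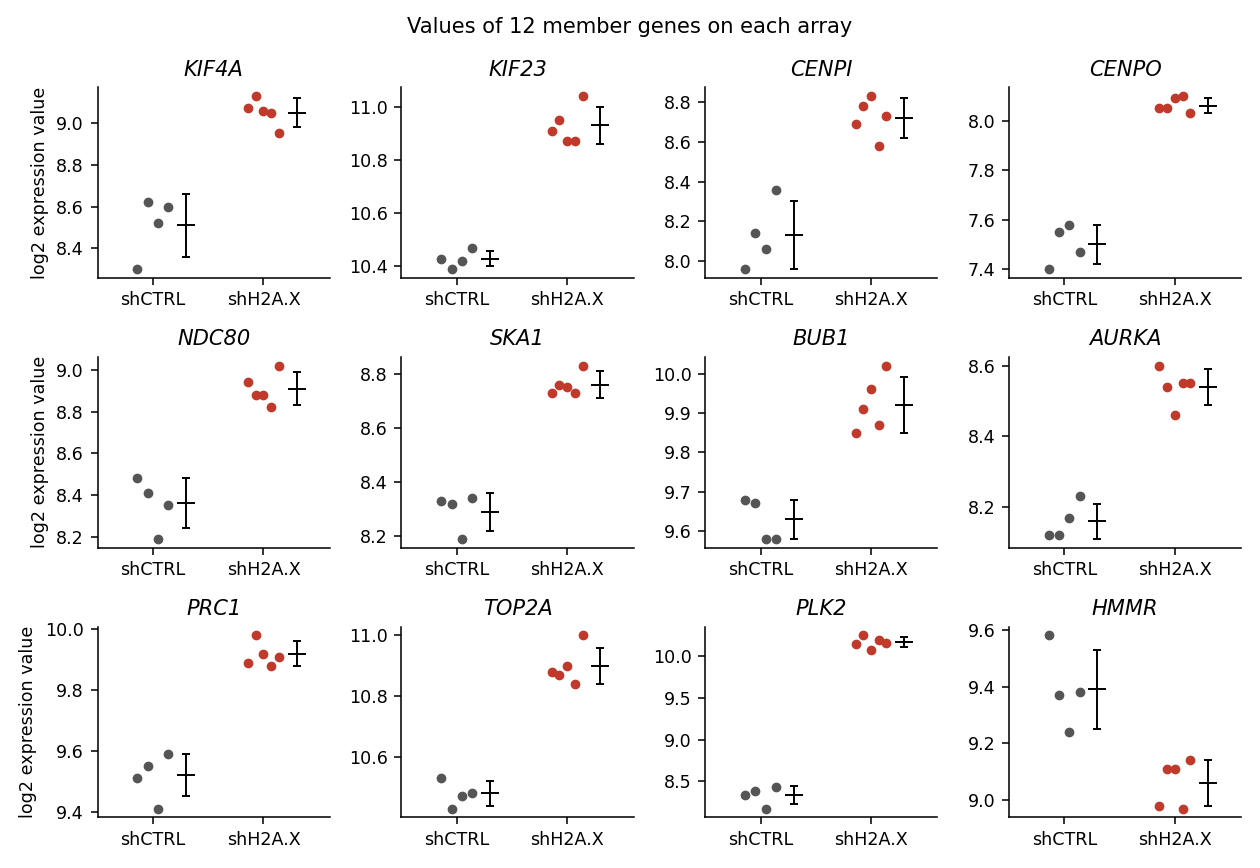
Log2 values of 12 members on each array, with the mean and SD of each group (n = 4 shCTRL, grey; n = 5 shH2A.X, red); each panel has its own axis, which does not start at 0. In 11 panels every shH2A.X array lies above every shCTRL array, and HMMR is the reverse.

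Spindle checkpoint genes rose in part, 3 of the 5 measured. Over all genes 12.2% rose and 12.1% were higher without overlap. Among genes in the level range of the mitotic genes 23.8% rose. BUB1, the kinase that marks centromeric histone H2A, was at 9.68, 9.67, 9.58 and 9.58 in shCTRL and at 9.85, 9.91, 9.96, 9.87 and 10.02 in shH2A.X, a rise of 0.29 ± 0.06 (limma adjusted p = 0.00351). BUB3, its partner at the kinetochore, was at 10.53, 10.58, 10.52 and 10.65 in shCTRL and between 10.84 and 10.89 in shH2A.X, a rise of 0.28 ± 0.05 (limma adjusted p = 0.00225). Neither gene overlapped between the groups. MAD2L1 (MAD2), which binds CDC20 and so restrains the anaphase-promoting complex, was at 9.17, 8.95, 9.07 and 9.06 in shCTRL and at 9.25, 9.30, 9.23, 9.26 and 9.38 in shH2A.X. Its rise of 0.22 ± 0.06 (limma adjusted p = 0.0227) lost the call without shCTRL replicate 2 (0.0751) or shH2A.X replicate 2 or 5 (0.0507 and 0.0514, all adjusted p). BUB1B (BUBR1) at 0.12, with a 95% interval from −0.01 to 0.25, and the checkpoint kinase TTK at 0.06, from −0.07 to 0.19, did not pass the test.

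The 8 Aurora and polo-like kinases ranged from −0.05 to 1.84, and 4 of them rose, beside 12.2% of all genes. PLK2, a polo-like kinase that is induced by stress and p53 and acts in centriole duplication rather than in the spindle, had the largest rise of all 87 members. It was at 8.33, 8.38, 8.17 and 8.43 in shCTRL and at 10.15, 10.25, 10.08, 10.19 and 10.16 in shH2A.X, a difference of 1.84 ± 0.07 or 3.57-fold (limma adjusted p = 8.73e-09). The gap between the groups far exceeded the SD of 0.11 and 0.06 within them. AURKA, the Aurora kinase of centrosomes and spindle poles, was at 8.12, 8.12, 8.17 and 8.23 in shCTRL and at 8.60, 8.54, 8.46, 8.55 and 8.55 in shH2A.X, a rise of 0.38 ± 0.06 (limma adjusted p = 4.49e-04). PLK4, the master kinase of centriole duplication, was at 8.06, 7.97, 7.70 and 7.95 in shCTRL and at 8.25, 8.28, 8.20, 8.23 and 8.45 in shH2A.X, a rise of 0.36 ± 0.08 (limma adjusted p = 0.00788). Both groups were apart in both genes. PLK1, the polo-like kinase of mitotic entry, was named after its values were seen. It rose by 0.27 ± 0.05, from 10.83, 10.83, 10.80 and 10.77 to 11.13, 11.11, 11.09, 11.05 and 10.99 (limma adjusted p = 0.00390). AURKB, the Aurora kinase of the chromosomal passenger complex, also named afterwards, was not called at 0.03 ± 0.06. Its 95% interval ran from −0.09 to 0.16, and its difference from AURKA was not tested. Of the partners of AURKB in that complex, BIRC5 and CDCA8 rose by 0.30 and 0.25 and INCENP, at 0.12, did not pass. AURKC, PLK3 and PLK5 had values between −0.05 and −0.02 and were not called.

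The anaphase-promoting complex is the ubiquitin ligase that ends mitosis. Of 10 subunits and the activator CDC20, 1 rose (9.09%), 1 fell (9.09%) and 9 did not pass, shares near the 12.2% and 10.7% of all genes. The median was 0.06. ANAPC2, the cullin subunit, was at 6.93, 6.75, 6.81 and 6.76 in shCTRL and at 7.15, 7.08, 7.06, 7.01 and 7.16 in shH2A.X, a rise of 0.28 ± 0.06 (limma adjusted p = 0.00642). ANAPC11, the RING subunit that pairs with it, was at 7.96, 8.01, 8.07 and 7.97 in shCTRL and at 7.89, 7.63, 7.83, 7.81 and 7.60 in shH2A.X, a fall by 0.25 ± 0.07 (limma adjusted p = 0.0276). The groups were apart in both genes, in opposite directions. The ANAPC11 call was lost without shCTRL replicate 2 or 3 or shH2A.X replicate 2 or 5 (adjusted p = 0.0624, 0.0734, 0.0671 and 0.0587). CDC20, a textbook G2/M transcript with both motifs in its promoter, was at 10.52 to 10.66 in shCTRL and 10.68 to 10.79 in shH2A.X, and its difference of 0.13 ± 0.06 did not pass (limma adjusted p = 0.144) although the groups did not overlap. It was named after its values were seen.

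The remaining genes act on chromatids and on spindle microtubules. TOP2A, the topoisomerase that untangles sister chromatids, was at 10.53, 10.43, 10.47 and 10.48 in shCTRL and at 10.88, 10.87, 10.90, 10.84 and 11.00 in shH2A.X, a rise of 0.42 ± 0.06 (limma adjusted p = 2.24e-04). PRC1, which bundles the antiparallel microtubules of the midzone and recruits KIF4A, was at 9.51, 9.55, 9.41 and 9.59 in shCTRL and at 9.89, 9.98, 9.92, 9.88 and 9.91 in shH2A.X, a rise of 0.40 ± 0.06 (limma adjusted p = 3.87e-04). NUSAP1, a microtubule bundling protein near chromosomes, was at 10.59, 10.54, 10.48 and 10.57 in shCTRL and at 10.86, 10.90, 10.85, 10.89 and 10.98 in shH2A.X, a rise of 0.35 ± 0.05 (limma adjusted p = 6.64e-04). All 3 were apart between the groups. Over all genes 12.2% rose and 10.7% fell, and 12.1% were higher and 10.7% lower without overlap. Among genes in the level range of the mitotic genes, 23.8% rose and 18.9% fell. HMMR (RHAMM), which is known both as a spindle pole adaptor and as a receptor for hyaluronan, went against them. It was at 9.58, 9.37, 9.24 and 9.38 in shCTRL and at 8.98, 9.11, 9.11, 8.97 and 9.14 in shH2A.X, a fall by 0.33 ± 0.08 (limma adjusted p = 0.00806). The fall was the largest among the 87 members.

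Genes outside the rule that act in the same steps were also mostly higher. For comparison, 12.2% of all genes rose and 10.7% fell. Among genes in the level range of the mitotic genes, 23.8% rose and 18.9% fell. Of 69 partner genes listed (cyclins, centralspindlin, chromosomal passenger, cohesin protection and cytokinesis genes and others), 53 were measured and 32 rose, with a median of 0.25. None fell at adjusted p under 0.05 by limma, 1 did at unadjusted p under 0.05 (CDC16, a further subunit of the anaphase-promoting complex), and that 1 also passed the methods' t-test after adjustment. HJURP, the chaperone that loads CENP-A at centromeres, was at 9.12, 9.38, 9.34 and 9.29 in shCTRL and at 10.11, 10.11, 10.08, 10.07 and 10.00 in shH2A.X, a rise of 0.79 ± 0.07 (limma adjusted p = 6.07e-06), where CENPA itself gave 0.25. CDCA3, a trigger of mitotic entry, rose by 0.63 ± 0.06, CEP55, which brings the abscission machinery to the midbody, by 0.53 ± 0.05 and NDEL1, a regulator of dynein, by 0.49 ± 0.05. In none of these 4 did the groups overlap. Among 10 of 17 listed regulators of G2/M transcription, 4 rose, the activators FOXM1 (0.50 ± 0.06) and MYBL2 (0.32 ± 0.07), LIN54, the MuvB subunit that reads the CHR core (0.38 ± 0.06), and RBL1, the p107 pocket protein of DREAM (0.41 ± 0.08). The other 6 did not pass. They were the further MuvB subunits LIN9 (0.04), LIN37 (0.06), LIN52 (0.06) and RBBP4 (0.04), the pocket protein RBL2 (0.09) and TFDP1 (0.15). Of 40 DNA replication genes listed, 21 were measured and 12 rose, with a median of 0.23, among them GINS3 of the replicative helicase (0.46 ± 0.07), TYMS, which makes thymidylate (0.45 ± 0.06), CLSPN of the fork checkpoint (0.40 ± 0.08) and FEN1, the flap endonuclease (0.39 ± 0.06). The core helicase genes MCM2 to MCM7 were not called, with values from −0.11 (MCM6 and MCM7) to 0.18 (MCM5). None of the replication genes fell by limma, also at unadjusted p under 0.05, and 1 did by the methods' t-test after adjustment.

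**Figure D5:**
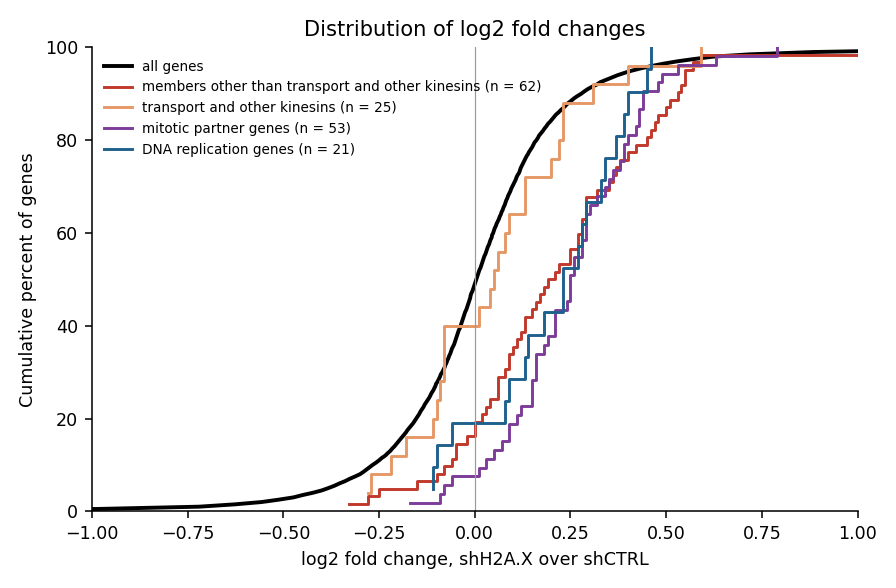
Cumulative percent of genes by log2 fold change, shH2A.X over shCTRL, for all genes (black), the 62 mitotic genes, the 25 transport kinesins, 53 partner genes and 21 DNA replication genes; the axis ends at −1 and 1, which leaves out PLK2 at 1.84. The curves of mitotic, partner and replication genes run to the right of the black curve, with medians of 0.20, 0.25 and 0.23 against 0.00.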

How the data were processed

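Biotin-labelled targets from 100 ng RNA of HCT116 cells were read on 9 Affymetrix arrays. The authors made CHP files with Affymetrix Expression Console and normalized CEL files in Partek 6.6, per the methods and the submitters' processing notes. Their deposited log2 values cover 53617 probe sets and were used as they stand. For the background correction and the normalization method, no detail is given in the sources used here. The methods speak of 5 arrays in each group, and the labels give 4 shCTRL arrays. No per-sample column was left unused, and no arrays held identical values. The number of arrays limits the precision.

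Gene names came from the platform annotation: 16098 probe sets had 1 symbol, none had several and 37519 are unnamed here. Where a gene had several probe sets (779 of 14884 genes, among members KIF1B and KIF27), the one with the highest mean over all arrays was used. No test compared values of different probe sets. Where levels were set side by side, as for the level range and the marker lists, this was description. Differences were tested with limma 3.58.1 in R 4.3.3 (lmFit, eBayes, no filter, no covariate, Benjamini-Hochberg over 14884 genes), and a gene rose or fell at adjusted p under 0.05. The script was tested on simulated data. The p-values thus rest on array-to-array spread only, which may be technical.

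The members, roles and lists were chosen with earlier results of these data known. Named members are those past the test with at least 1.5-fold change and, for each role, up to 3 rises and 3 falls by size, and for each other list up to 4. Genes named outside this rule (among them KIF18A, KIF11, KIF20A, KIF14, KIF1C, KIF3C, PLK1, AURKB, CDC20, TTK, BUB1B, BIRC5, CDCA8, INCENP, CDC16, MCM2 to MCM7, the regulators not called, the marker genes and the members not called) were chosen after their values were seen. Promoters came from the RefSeq table, 1 for each symbol, and 13 members have none (AURKA, PLK5, CENPH, CENPL, CENPM, KIF13B, KIF19, KIF21B, KIF26B, KIF27, KIF5A, BUB3 and TTK). Each array was left out in turn. Further alternatives were the methods' t-test (variances taken as equal), a robust prior with a mean-variance trend, the mean over a gene's probe sets, a block for replicate number, adjustment over all probe sets, array-median centring, quantile normalization and a filter on dim genes.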

Additional observations from a re-analysis of the deposited data

Results flagged for a closer look

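In 4 of the 78 pairs of a named gene and a group, 1 array lay far from the others of its group relative to the group's range, and chance gives about 1 such pair in 20. KIF16B was at 6.37 in shH2A.X replicate 1, below the 6.51 to 6.56 of the other 4 arrays. SKA1 was at 8.19 in shCTRL replicate 3, where the other 3 arrays had 8.32 to 8.34. CLSPN was low on the same array, at 8.32 against 8.39 to 8.40. CDCA3 was at 7.93 in shH2A.X replicate 4, against 8.07 to 8.12.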

How the results depend on the processing

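Over all alternatives, the number of members that rose ran from 29 to 38 and of those that fell from 1 to 6. No called member changed sign. With the replicate number as a block, 30 of 40 member calls were kept, 29 members rose and 1 fell (also 1 of the mitotic genes), and 21 partner genes rose. Calls lost with the block were those of ANAPC11, CENPA, CENPV, KIF14, KIF16B, KIF1B, KIF1C, KIF21A, KIF3C and MAD2L1. Deviations of arrays with the same number correlated between −0.0855 and 0.024, so the arrays share only a number. Adjustment over all probe sets kept 35 of 40 calls, losing ANAPC11, KIF14, KIF16B, KIF1C and MAD2L1. The median over the members was 0.15 after quantile normalization, and 1 partner gene fell with quantile normalization, the dim filter, the mean-variance trend or the methods' t-test. A replication gene fell (1) with the trend and with that t-test. Leaving out 1 array in turn gave 32 to 35 members that rose and 4 to 6 that fell, 25 to 31 partner genes that rose, and medians of 0.11 to 0.16 over the members and 0.19 to 0.25 over the mitotic genes. Among all genes it gave 1532 to 1680 rises and 1326 to 1505 falls. The smallest change called among the members was 1.17-fold, and members not called may differ by amounts these 9 arrays cannot resolve.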
